A study of Mus musculus with 6 samples.

Results

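The cells described here are the fibroblasts of the dura mater that were released with the tissue lining the inner side of the skull. They were chosen by their transcripts: a cell had to carry at least 1 UMI of at least 5 of 8 fibroblast genes (the collagens Col1a2 and Col3a1, the proteoglycans Dcn and Lum, and Fbln1, Pcolce, Islr and Serpinf1) and none of Ptprc, Pecam1, Kcnj8 or Cnn1, which mark leukocytes, endothelial cells, pericytes and smooth muscle cells. This rule found 248 of the 3465 bone-associated (BA) cells that passed the filters, in a series of 8804 such cells. The series holds 2 BA libraries and 4 cortical surface-associated (CSA) libraries of adult C57BL6 mice, sorted as viable cells and run on the 10x Genomics Chromium system, which counts each captured transcript once by its unique molecular identifier (UMI). Each library pooled the tissue of several untreated mice, so the library is the replicate and variation from mouse to mouse is hidden. The tissue label is Dura/Skull for both BA libraries, and no gene was edited in them.

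Dural fibroblasts make and maintain the collagen-rich outer sheet of the meninges. They share collagens, small proteoglycans and the receptor Pdgfra with other connective tissue fibroblasts, and they lie against the inner table of the skull, whose bone-forming cells arise from the same cranial mesenchyme. The leptomeningeal fibroblasts of the arachnoid and pia, by contrast, are rich in solute transporters and gap junction proteins. Alpl encodes tissue-nonspecific alkaline phosphatase, an enzyme of mineralization that is expressed by bone-forming cells and also by some soft tissue cells.

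BA library 1 gave 28 dural fibroblasts among 963 cells (2.91%, exact binomial 95% interval 1.94 to 4.17%). BA library 2 gave 220 among 2502 (8.79%, 7.71 to 9.97%). The intervals, which cover counting error only, do not overlap. BA libraries 1 and 2 held 12041325 and 27511208 UMIs in all. The dural fibroblasts had medians of 17270.5 and 14162.5 UMIs per cell, against 8000 and 7325 for the other BA cells of the same libraries. All 8 markers were seen in 20 of the 28 and 117 of the 220 cells, and exactly 5 in 1 cell of each library. Just outside the rule lay 9 and 12 cells with exactly 4 markers, whose Dcn levels were 12.5 and 74.2 CPM (the UMIs of a gene per 1e6 UMIs of the group), against 9970 and 7251 CPM in the members. A further 28 and 85 cells carried at least 5 markers but also at least 1 of the 4 excluded genes, most often Kcnj8, and they stayed among the other BA cells.

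Markers that the rule did not use were examined next. Pdgfra, a growth factor receptor of fibroblasts by which the study recognized meningeal mesenchymal cells, had a UMI in 82.1% and 72.7% of the members and in 0% and 0.543% of the T cells, which give the background of free RNA at medians of 6319 and 6409.5 UMIs. The 5 T cell markers summed to 0 and 9.20 CPM in the members, the 5 macrophage markers to 6.30 and 6.44, the 5 endothelial markers to 39.9 and 16.9, and the 5 pericyte markers to 81.9 and 62.3. Of the 7 smooth muscle markers, 6 had UMIs, with sums of 576 and 744 CPM led by Tagln, against 7256 and 4079 in the other BA cells. At least 3 of these markers were seen in 46.4% and 32.3% of the members. Cnn1, and Pecam1 among the endothelial markers, were at 0 by the rule. Of the 5 osteoblast markers, Ibsp and Dmp1 had no UMI in either library. Bglap and Bglap2 had UMIs in 14 members of library 2, and 1 of those cells held 202 of their 262 UMIs.

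A few members went against the label. A cell of BA library 1 with 5 markers held 4618 UMIs of Ttr, a transthyretin gene abundant in the choroid plexus, which was 25.4% of its UMIs, while its markers summed to 7 UMIs. A cell of BA library 2 held 1366 of the 1400 UMIs of Ptgds, a gene abundant in the leptomeninges, that the 220 members had between them. These cells and the cell with the most Bglap2 were kept, because they met the rule, and the fits below were repeated without the 3 of them. The 2 BA libraries shared 2 cell barcodes, and 1 member's barcode was also found in another library.

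Against the other BA cells, Cpxm1, Mfap4 and Clec11a, which encode secreted proteins, had the highest ratios in the library where the ratio was lower. The rule chose the members within these very cells, so this contrast is a description and carries no test. The 15 genes named here had the highest ratio of (CPM + 5) to the other BA cells in the library where it was lower, among genes seen in at least 50% of the members of each library. Cpxm1 (ENSMUSG00000027408, mm10 chromosome 2, 130390775 to 130397574), which encodes a secreted carboxypeptidase-like protein, had 1404 and 1289 CPM in the members of libraries 1 and 2, against 19.8 and 33.4 in the other cells. The ratios were 56.9 and 33.7. Mfap4, a microfibril-associated glycoprotein, had 1708 and 2011 CPM against 22.8 and 55.0. Clec11a, a secreted growth factor for skeletal stem cells, had 609 and 837 CPM against 13.8 and 21.7. In all of these genes both libraries of members lay far above both libraries of other cells.

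The other 12 genes were of several kinds. Matn4, a matrilin of the filamentous matrix, had 979 and 795 CPM against 14.4 and 21.2 in the other cells. The carboxypeptidase Cpz had 326 and 406 CPM against 2.60 and 8.86. Col12a1, a collagen that binds fibril surfaces, had 1105 and 634 CPM against 26.02 and 21.9. The antioxidant enzyme Gpx3 was at 4299 and 4070 CPM, and Apod, a lipocalin that carries small lipids, at 6138 and 3100. Apod therefore differed between the 2 libraries of members more than the others did. H19, an imprinted noncoding RNA (chromosome 7, 142575529 to 142578143), had 1242 and 1428 CPM against 19.7 and 43.7. The transcription factors Foxd1 and Prrx2, both genes of the cranial and skeletal mesenchyme, had 748 and 694 CPM and 221 and 356 CPM. Foxd1 was seen in 89.3% and 95.5% of the members and Prrx2 in 89.3% and 88.6%. Shisa3, Tspan11, Olfml3 and Clmp completed the 15, with ratios between 21.1 and 57.5. The share of T cells with a UMI of any of the 15 genes was at most 4.89%, for Gpx3 in library 2.

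**Figure D1:**
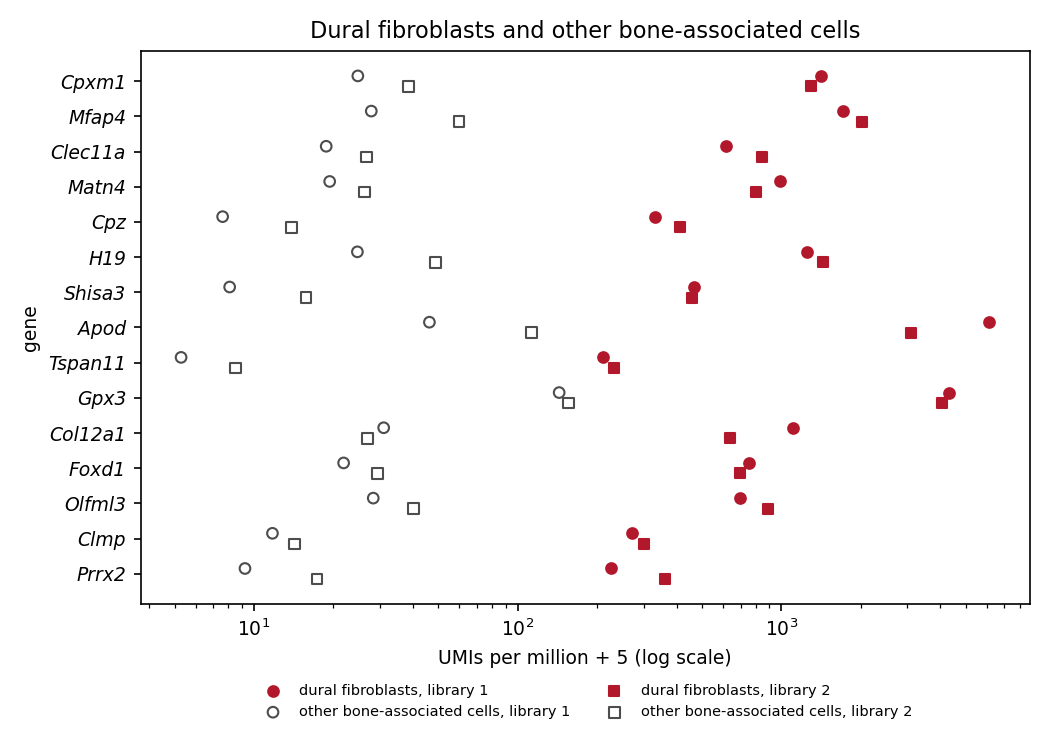
CPM plus 5, on a log scale, of the 15 genes with the highest ratio between dural fibroblasts (filled) and the other bone-associated cells (open) in libraries 1 (circles) and 2 (squares); each point is the sum over all cells of a group in a library. For every gene both filled points lie to the right of both open points, as for Cpxm1 with 1404 and 1289 CPM in the members and 19.8 and 33.4 in the others.

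The same marker rule was then applied to the CSA libraries, where it found 68, 123, 28 and 21 leptomeningeal fibroblasts, and the summed UMIs of the 2 BA and 4 CSA libraries were compared. Of 9572 genes tested, 785 were higher in dural fibroblasts (8.20% of those tested) and 559 in leptomeningeal fibroblasts (5.84%), by edgeR's quasi-likelihood test. A call needed an adjusted p under 0.05 and a log2 fold change of 1.3 or more in either direction. Tissue and dissection differ together between the BA and CSA libraries and cannot be told apart. The leptomeningeal cells were also shallower, with medians of 8060.5, 9151, 5440 and 5097 UMIs. In the cells of CSA libraries 3 and 4, hemoglobin made up 13.0% and 20.3% of the UMIs, while the 4 erythroid markers came to 23.1 and 38.0 CPM in the dural fibroblasts. With hemoglobin genes left out, 820 and 537 genes were called. Markers of other cells also differed: the macrophage markers summed to 132, 412, 1438 and 65.0 CPM in the leptomeningeal fibroblasts of the 4 CSA libraries, and the endothelial markers to 183, 182, 143 and 152 CPM, above the sums given for the dural fibroblasts. Their part in the difference was not tested.

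The 10 largest differences toward the dura, among genes of at least 50 UMIs whose libraries did not overlap, were led by Chad, Sfrp2, Chrdl1 and Tnmd. The levels below are TMM-scaled CPM. Chad, which encodes the cartilage protein chondroadherin (chromosome 11, 94565047 to 94569127), had 91.2 and 1019 CPM in the dural fibroblasts and no UMI in any of the 4 CSA libraries. This was at least 414-fold higher, counting the CSA libraries together at a floor of 3 UMIs, but the level rested mainly on library 2. Sfrp2, a secreted Wnt modulator (chromosome 3, 83766321 to 83774316), had 283 and 220 CPM and was at least 188-fold higher. The BMP antagonist Chrdl1 had 216 and 199 CPM and the tendon gene Tnmd, tenomodulin, 141 and 164, which made them at least 155-fold and 114-fold higher. Col6a5, a chain of collagen VI, the potassium channel subunit Kcns1, the natriuretic peptide Nppc and the protease inhibitor Pi15 were likewise without a UMI in leptomeningeal fibroblasts. Their lower bounds were 94.3-, 91.9-, 75.6- and 44.5-fold. Nppc, with 18.6 and 184 CPM, was carried mainly by library 2, and Pi15, with 87.4 and 31.9 CPM, was higher in library 1.

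Matn4 and Gpx3 had a few UMIs in the leptomeningeal cells. Matn4 (chromosome 2, 164389393 to 164405160) had 867 and 753 CPM in the dural fibroblasts against 1.55, 0.763, 0 and 0. With 2 UMIs in the CSA libraries, the counted ratio was 859 (95% counting interval 238 to 7098). Gpx3 had 3806 and 3853 CPM against 4.66, 8.39, 0 and 0, a log2 fold change of 9.33 ± 0.42 (SE, adjusted p = 2.56e-12). The libraries of the 2 groups did not overlap.

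In the other direction, 4 of the 10 largest differences were in solute transporters. Ranbp3l, which encodes a Ran-binding nuclear export factor (chromosome 15, 8967949 to 9067335), had 580, 494, 455 and 579 CPM in the 4 CSA libraries and no UMI in the 248 dural fibroblasts, at least 699-fold lower. Dcdc2a, Zkscan2, the zinc and manganese transporter Slc30a10, the iodide transporter Slc5a5, Fgfbp1 and the Wnt receptor Fzd10 also had no UMI there, with bounds of 204-, 174-, 166-, 112-, 56.1- and 61.7-fold. Slc6a20a, an amino acid transporter, had 1179, 1017, 730 and 942 CPM against 3.72 and 0.871, a log2 fold change of -9.39 ± 0.51 (SE, adjusted p = 6.41e-11). Gatm, of creatine synthesis, and the dicarboxylate transporter Slc13a3 had 2 UMIs each in the dural fibroblasts, with counted ratios of 775 (214 to 6409) and 554 (153 to 4587) toward the leptomeningeal cells.

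Gene lists described the breadth of the difference. Over all genes tested the median log2 fold change was -0.00028. Of 19 fibrillar and network collagens tested, 13 were higher in dural fibroblasts and 1 lower (median 2.22). Col8a1, a short-chain network collagen, had 372 and 306 CPM in the dural fibroblasts against at most 8.65 in any CSA library (log2 fold change 6.40 ± 0.46, adjusted p = 1.69e-09). Col14a1, a fibril-associated collagen, had 385 and 385 CPM against 0, 20.6, 0 and 0. Col13a1, a transmembrane collagen, was the exception, with 18.6 and 4.06 CPM against 152, 159, 114 and 233 (log2 fold change -4.41 ± 0.49, adjusted p = 7.18e-07). Of 17 collagen-processing enzymes, 7 were higher and none lower (median 1.11), among them the crosslinking enzyme Lox, with 177 and 142 CPM against 20.2, 19.1, 17.9 and 69.2. Of 10 small leucine-rich proteoglycans, 7 were higher and none lower (median 1.92). Of 29 matricellular and elastic fibre genes, 17 were higher and 2 lower (median 2.45). Of 22 proteases and inhibitors, 13 were higher and 1 lower (median 1.93).

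Regulators of bone, cartilage and tendon were among the genes higher in dural fibroblasts. Of 17 bone lineage genes tested, 8 were higher in dural fibroblasts and 2 lower (median 0.92), and of 9 cartilage and tendon genes 5 were higher and 1 lower (median 3.89). Runx2, the regulator of osteoblast commitment, had 100.5 and 81.6 CPM against 13.98, 9.15, 11.96 and 0 (log2 fold change 3.11 ± 0.38, adjusted p = 2.88e-06). The homeobox genes Dlx5 and Msx2 had 16.7 and 30.2 and 16.7 and 35.4 CPM and no UMI in the leptomeningeal cells. Cdh11, a cadherin of osteoblasts and other mesenchyme, had 913 and 729 CPM against 40.4, 99.1, 53.8 and 121. The tendon factor Scx had 40.9 and 12.2 CPM and no UMI in the CSA cells, where the cartilage proteoglycan Acan had none either. The mineralization enzyme Phospho1 had no UMI in the members of library 1 and was at 0.307 CPM before scaling in library 2, so that it did not pass the detection filter.

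Transcription factors of the cranial mesenchyme differed in both directions: of 33 tested, 14 were higher in dural and 9 in leptomeningeal fibroblasts (median 0.67). Six2, a homeobox gene of the skull and its sutures, had 130 and 152 CPM in the dural fibroblasts, and at most 18.6 in any CSA library. Runx1 and Alx1 were also higher, with log2 fold changes of 3.72 ± 0.43 and 4.22 ± 0.53. On the leptomeningeal side, Tbx18 had 241, 209, 227 and 259 CPM against 37.2 and 32.2 (log2 fold change -2.76 ± 0.30, adjusted p = 5.33e-07). Zic1, a zinc finger gene of the dorsal head, had 833, 573, 586 and 692 CPM against 247 and 222, so dural fibroblasts also expressed it. Foxd1 and Foxc1, regulators of meningeal development, were not called, with log2 fold changes of 0.47 and -0.76.

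Signalling genes also divided the fibroblasts. In the BMP and TGF-beta axis 11 of 31 genes were higher in dural and 7 in leptomeningeal fibroblasts (median 1.20). The ligands Bmp2, Bmp6 and Bmp7 were lower in dural fibroblasts: Bmp6 had 7.44 and 13.4 CPM against 461, 526, 437 and 415 (log2 fold change -5.29 ± 0.35, adjusted p = 5.32e-10). Gdf10, a TGF-beta family ligand (chromosome 14, 33923587 to 33937983), had 1085 and 679 CPM against 0, 9.15, 5.98 and 17.3. Tgfb3 was higher as well, and so were the antagonists Nog, Fst and Bmper, of which Nog and Fst had no UMI in the leptomeningeal cells. In the Wnt axis 11 of 23 genes were higher and 9 lower (median 0.43). Wnt4 had 1.86 and 2.03 CPM in the dural fibroblasts against 367, 488, 473 and 337. The pathway target Axin2 had 7.44 and 8.13 CPM against 127, 114, 221 and 77.8, and the pathway factor Lef1 was lower too. The Wnt enhancers Rspo1 and Rspo3 and the inhibitor Dkk2 were higher in dural fibroblasts.

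Of 26 other ligands 11 were higher and 5 lower (median 0.67). Igf1, insulin-like growth factor 1, had 1239 and 954 CPM against 79.2, 50.3, 59.8 and 34.6 (log2 fold change 4.21 ± 0.28, adjusted p = 5.32e-10). The growth factor pleiotrophin, Ptn, had 668 and 775 CPM against 13512, 12514, 14603 and 13548. Among 6 binding proteins and neighbours of the insulin-like growth factor system 5 were higher and 1 lower (median 3.52). Igfbp5 had 7527 and 7509 CPM against 0, 689, 179 and 519, while Igfbp2 went the other way with 309 and 179 against 4358, 4505, 3823 and 3043. Of 27 receptors and other surface proteins 8 were higher and 3 lower (median 0.42). The endothelin receptor Ednra had 100.5 and 74.6 CPM against 0, 3.05, 11.96 and 0. Of 11 immune-directed ligands 4 were higher and 3 lower (median -0.44). The alarmin Il33 had 190 and 202 CPM against 0, 10.7, 0 and 0, and the macrophage factor Il34 had 35.3 and 50.5 against 238, 237, 209 and 138. Of 26 leptomeningeal and arachnoid genes 3 were higher in dural fibroblasts and 20 lower (median -5.00). The 3 were Slc47a1, Cldn11, a tight junction gene, and Bnc2, at log2 fold changes of 2.03 ± 0.54, 2.71 ± 0.34 and 3.08 ± 0.52. Of the 10 genes the study itself named as dural, 9 were higher and none lower, but it picked them on these samples and the count is not independent.

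Immediate-early and heat shock genes moved with the preparation. Of 22 tested, 15 were higher in dural fibroblasts and none lower (median 2.10). Fos had 2089 and 2095 CPM against 295, 407, 168 and 268, and Egr1 had 1103 and 741 against 60.6, 104, 17.9 and 164. Before scaling, Fos was at 2360 and 2214 CPM in the dural fibroblasts and at 2583 and 2214 in the other BA cells. Of 9 metallothionein and interferon-induced genes 3 were higher and none lower. The part of these genes in the other differences was not tested. Of the proliferation genes, Mki67 and Cdk1 had no UMI in BA library 1 and 0.307 CPM each in library 2, against 21.1 and 19.7 CPM of Mki67 in the other BA cells. Of 10 genes listed, Pcna and Tyms passed the detection filter and neither was called; Pcna had 42.8 and 39.5 CPM against 32.6, 34.3, 17.9 and 51.9.

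**Figure D2:**
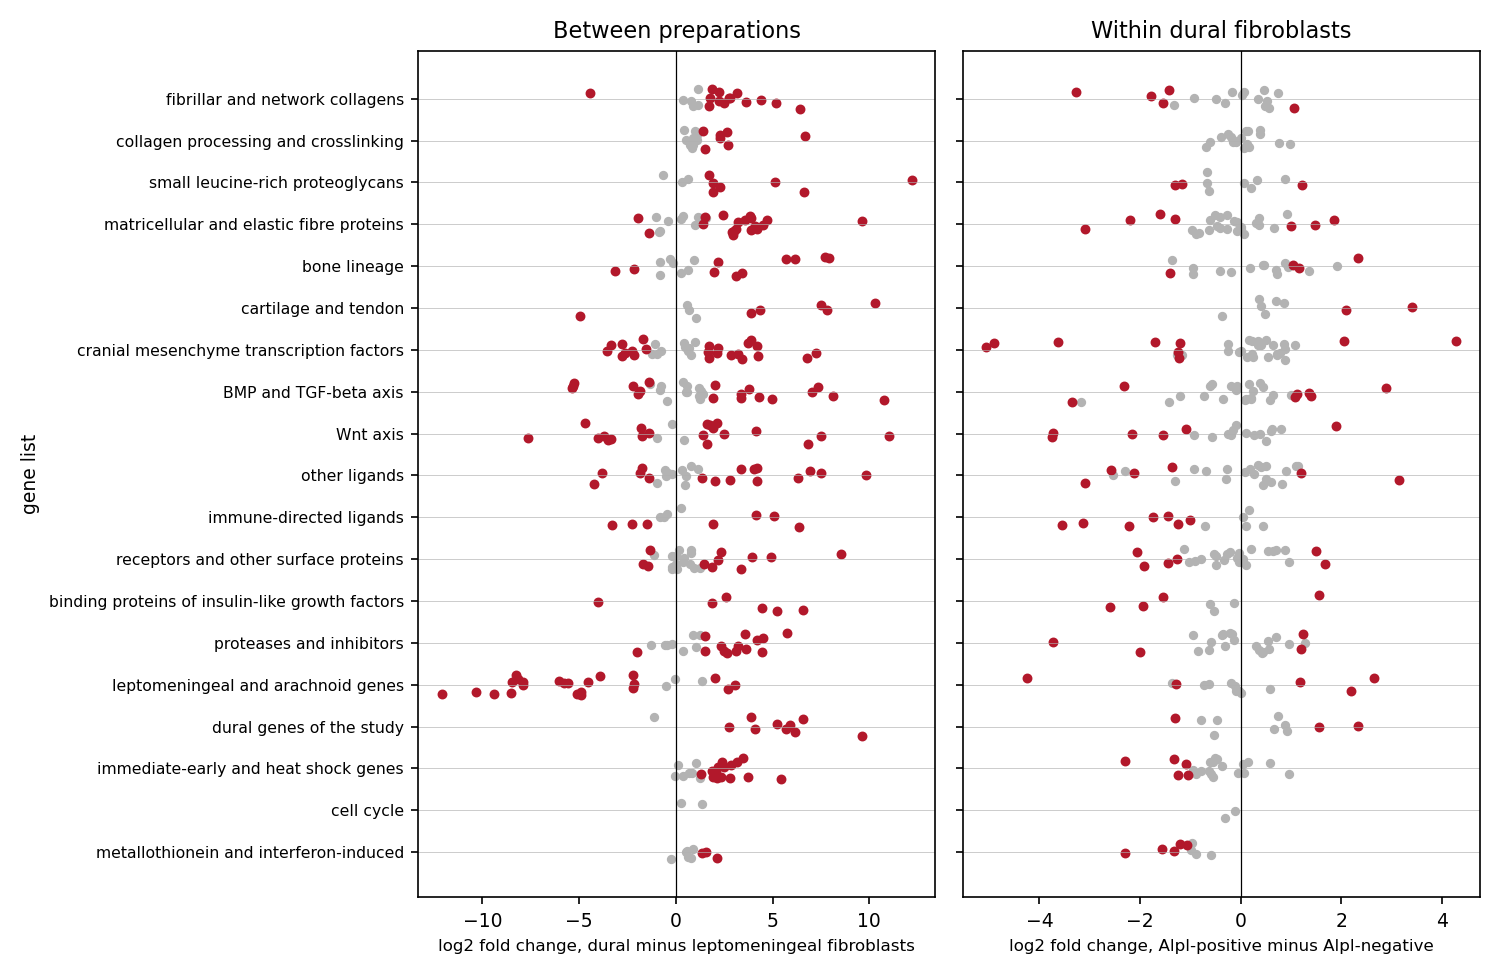
Fitted log2 fold changes of the genes tested in each of 19 gene lists, dural minus leptomeningeal fibroblasts on the left and Alpl-positive minus Alpl-negative dural fibroblasts on the right; each point is a gene, red where it passed the test and grey where it did not. Red points of the collagen, proteoglycan and matricellular lists lie mostly right of 0 on the left, and all 7 red points of the immune-directed ligands lie left of 0 on the right.

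Alpl (ENSMUSG00000028766, chromosome 4, 137741733 to 137796384) divided the dural fibroblasts themselves. Its level was 328 CPM in the members of BA library 1 and 428 in those of library 2, against 42.2 and 40.5 in the other BA cells. An Alpl UMI was seen in 13 of 28 members (46.4%, exact binomial 95% interval 27.5 to 66.1%) and 145 of 220 (65.9%, 59.2 to 72.1%). The share in T cells was 0 of 133, which allows up to 2.26% when the limit is set at 3 counts of the total, and 6 of 368 (1.63%). Most positive cells had more than a single UMI: 12 of 13 and 116 of 145 had at least 2, and 10 and 95 had at least 5. Cells with an Alpl UMI were deeper, with medians of 18147 and 16371 UMIs against 15520 and 11223. When the 220 cells of library 2 were ordered by depth and cut into 4 groups of 55, the share with Alpl was 38.2%, 54.5%, 81.8% and 89.1% from the shallowest to the deepest. With every cell thinned to 5000 UMIs, which left out 1 cell in each library, the shares were 40.7% (22.4 to 61.2%) and 54.8% (47.9 to 61.5%), and 0% and 0.319% in T cells. Cells without an Alpl UMI may thus include shallow cells in which it was missed. The intervals of the 2 libraries overlapped.

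For the comparison, UMIs were summed over cells with and without an Alpl UMI in each library, so that each library gave both sums. Of 9679 genes tested, 96 were higher in the Alpl-positive cells (0.992% of those tested) and 181 in the Alpl-negative cells (1.87%), by edgeR's quasi-likelihood test with the library as a block. Here a call needed an adjusted p under 0.05 and a log2 fold change of 1 or more in either direction. The SE given below was derived from the log2 fold change and the F of the test. With 1 residual degree of freedom, neither this SE nor the p measures how far a gene's difference varied between the libraries. DESeq2, on the same sums, called 28 genes, 7 higher and 21 lower, all of them among the 277. The calls had the same direction in both libraries for 91 of the 96 and 168 of the 181 genes. Few cells carried some of them: for 7 genes, all higher in the Alpl-negative cells, a single cell gave more than 50% of the UMIs of the higher group. In the fit after thinning to 5000 UMIs, cells were also regrouped by their thinned Alpl counts. It had 11 Alpl-positive and 16 Alpl-negative cells in library 1, and 120 and 99 in library 2. Percentages and counts of cells given below for thinned cells keep the original groups.

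The calls with the smallest p by DESeq2, Apod and Gsn, were lower in Alpl-positive cells. Apod (ENSMUSG00000022548, chromosome 16, 31296192 to 31314808) had 12005 and 9899 TMM-scaled CPM in the Alpl-negative cells of libraries 1 and 2, against 519 and 770 in the Alpl-positive cells. The log2 fold change was -4.09 ± 0.18 (SE, adjusted p = 4.27e-111, and 5.52e-29 by DESeq2). The groups did not overlap. Within cells thinned to 5000 UMIs, the median Apod count was 18 and 13 UMIs in Alpl-negative cells and 1.5 and 1 in Alpl-positive cells. At least 10 Apod UMIs were found in 9 of 15 and 40 of 75 Alpl-negative cells, and in 1 of 12 and 17 of 144 Alpl-positive cells. Apod was therefore present in some Alpl-positive cells and low in some Alpl-negative cells. Between preparations, Apod was lower in the dural fibroblasts as a whole, at 5434 and 2934 CPM against 12081, 11090, 10816 and 17542 in the leptomeningeal fibroblasts (log2 fold change -1.62 ± 0.43, adjusted p = 0.0085).

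**Figure D3:**
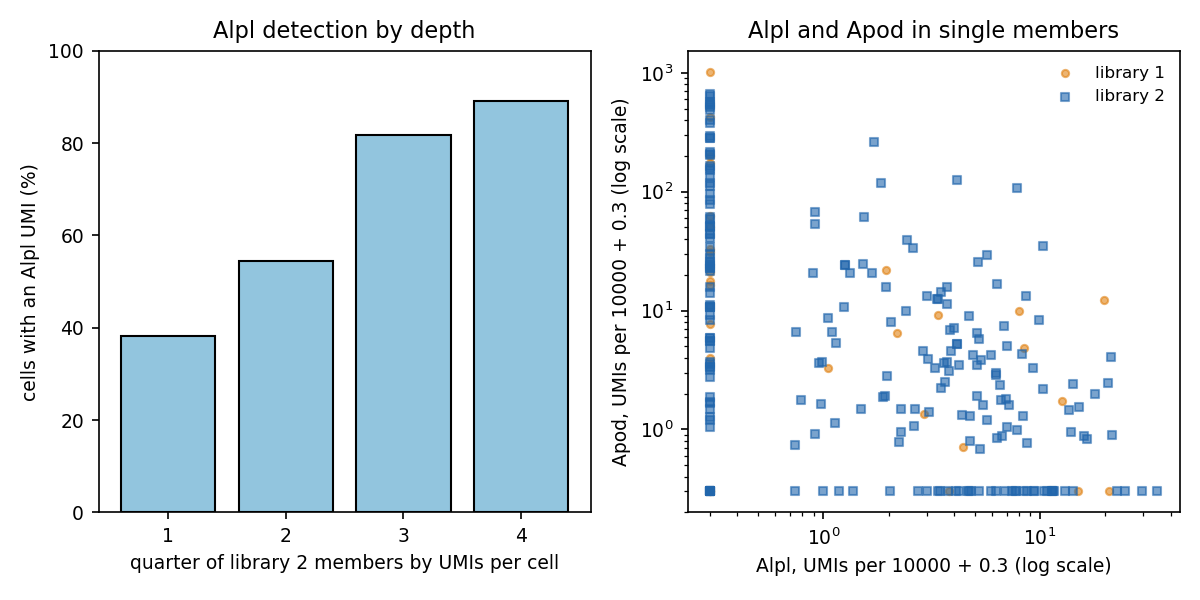
Left, the percentage of dural fibroblasts of library 2 with an Alpl UMI in 4 groups of 55 cells of increasing depth, which climbs from 38.2% to 89.1%. Right, Alpl and Apod UMIs per 10000 UMIs plus 0.3, on log scales, in each dural fibroblast of libraries 1 (circles) and 2 (squares); cells without an Alpl UMI form the column at the left edge, where the highest Apod values lie.

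Gsn, the actin-severing protein gelsolin, had 3259 and 5625 CPM in Alpl-negative cells against 401 and 964 (log2 fold change -2.77 ± 0.18, adjusted p = 6.82e-47). It was not in the lists and was singled out after its values were seen, as the call with the second smallest p by DESeq2 (2.40e-13). Gsn was seen in most cells of either group, in 75% and 86.8% of the Alpl-positive and 100% and 94.7% of the Alpl-negative cells thinned to 5000 UMIs. The transcription factor Meox2 (chromosome 12, 37108540 to 37179534), a homeobox gene of mesoderm, had 51.7 and 60.8 CPM against 0 and 2.14 (log2 fold change -4.91 ± 0.60). Ebf2 (chromosome 14, 67233292 to 67430918), a factor of mesenchymal progenitors, had 56.0 and 83.4 CPM against 7.63 and 5.98 (-3.63 ± 0.45). The Wnt inhibitor Sfrp1 (chromosome 8, 23411502 to 23449632) had 99.1 and 66.8 CPM against 3.82 and 5.55 (-3.73 ± 0.45). Complement C3 had 69.0 and 63.2 CPM against 0 and 6.41 (-3.55 ± 0.48). DESeq2 also called these 4, at adjusted p of 0.0079, 0.0337, 0.0068 and 0.0337. In each of them both Alpl-negative sums lay above both Alpl-positive sums. C3 rested on 12 Alpl-negative cells, 1 of which held 30.4% of the UMIs, and it was not tested after thinning, while the other 3 genes were called there too.

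DESeq2 did not call the other genes of the 10 largest on that side. Rbp4, a retinol carrier, had 8.62 and 79.9 CPM in Alpl-negative cells against 3.82 and 3.42, and 1 cell held 42.0% of the UMIs. Egr3, an immediate-early factor, had 25.9 and 71.5 against 3.82 and 4.70, and the methyltransferase Nnmt had 21.6 and 123 against 3.82 and 10.7. Nnmt, the one of these 3 that could be tested after thinning to 5000 UMIs, was called there, and 1 cell held 38.0% of its UMIs. Ttr was called by edgeR, with a log2 fold change of -3.98 ± 0.25 and an adjusted p of 4.70e-52. Its 20014 CPM in library 1, against 118, came from the cell described above, which gave 98.7% of the UMIs of the group. In library 2 Ttr had 44.1 CPM against 36.3, so the SE did not reflect the difference between the libraries. Without 3 cells, those richest in Ttr, Ptgds and Bglap2, the log2 fold change was -0.14 (adjusted p = 0.991).

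The 10 largest differences toward the Alpl-positive cells included Pappa, Nog and Acan. Pappa (ENSMUSG00000028370, chromosome 4, 65124174 to 65357509), a protease that frees insulin-like growth factors from their binding proteins, had 115 and 68.3 CPM in Alpl-positive cells against 8.62 and 1.19 in Alpl-negative cells. The 3 UMIs of the Alpl-negative cells put the counted ratio at 26.1 (95% counting interval 8.78 to 127), and the adjusted p was 2.52e-14 (0.0079 by DESeq2). Nog, the BMP antagonist noggin (chromosome 11, 89300638 to 89302332), had 42.0 and 57.2 CPM against 0 and 9.54 (log2 fold change 2.88 ± 0.52, adjusted p = 3.39e-06). Acan, the cartilage proteoglycan aggrecan, had 53.4 and 37.6 against 4.31 and 3.58 (3.41 ± 0.63). Col6a5 had 229 and 191 against 0 and 47.7, and the gap junction gene Gjb2 had 118 and 47.8 against 0 and 13.1. Egfl6, Pxylp1, Lbx2 and Fhod3 had 2 or 3 UMIs in the Alpl-negative cells, with counted ratios of 11.8 (3.90 to 58.3), 12.1 (3.21 to 102.5), 10.4 (3.43 to 51.7) and 7.68 (2.50 to 38.4). Dner, a Notch ligand, had 22.9 and 49.98 CPM against 4.31 and 5.96. Of these 10 genes DESeq2 called Pappa. With cells thinned to 5000 UMIs and regrouped by their thinned Alpl counts, 7 of the 10 could be tested, and Acan and Col6a5 were called. Pappa, Nog and Pxylp1 had log2 fold changes of 1.42, 1.36 and 1.39 there (adjusted p = 0.509, 0.590 and 0.827). Dner and Fhod3 were not called there either, at log2 fold changes of 2.73 and 2.13 (adjusted p = 0.0738 and 0.492).

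**Figure D4:**
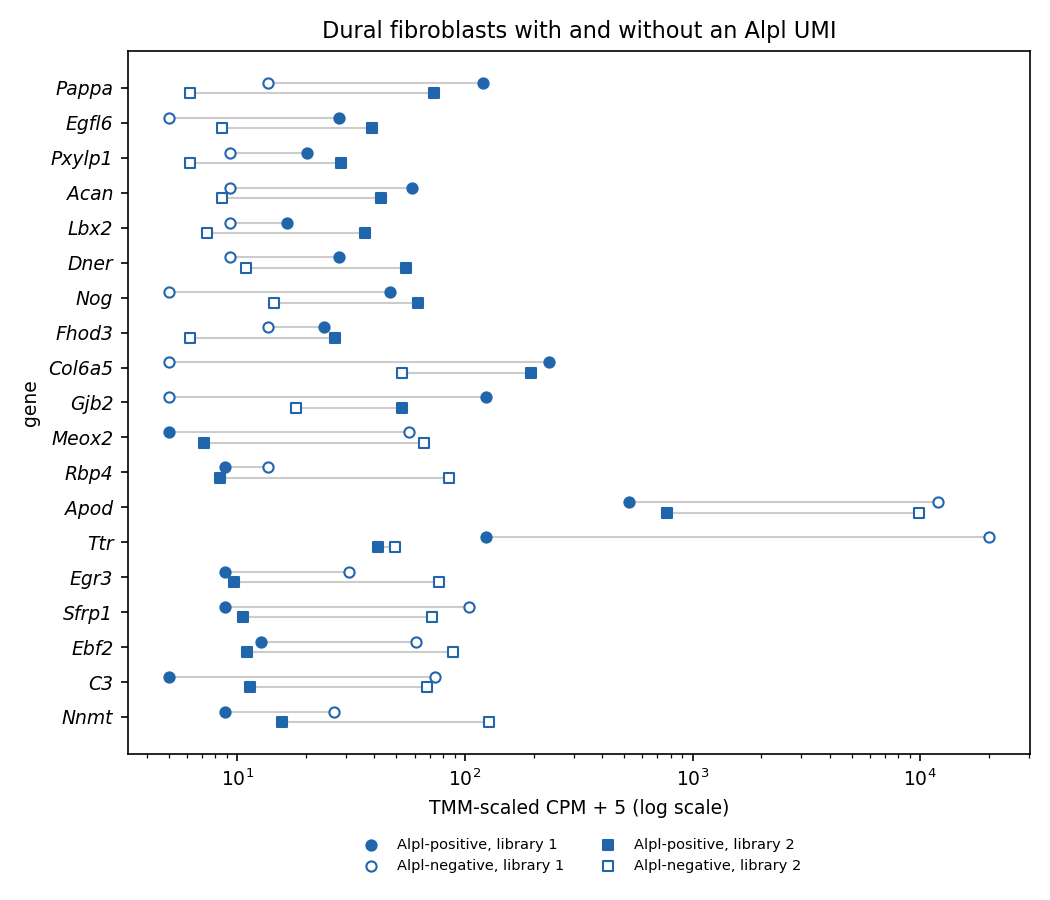
TMM-scaled CPM plus 5, on a log scale, of 19 of the 20 genes named for the Alpl comparison in Alpl-positive (filled) and Alpl-negative (open) dural fibroblasts of libraries 1 (circles) and 2 (squares), with a line joining the sums of a library. As the rule for naming genes required in both libraries, the filled point lies to the right for the 10 upper genes and to the left for the 9 lower ones; for Ttr the library 2 points, 36.3 and 44.1 CPM, nearly coincide.

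On the Alpl-positive side, 6 further genes were called by both edgeR and DESeq2. The Wnt enhancer Rspo3 (chromosome 10, 29452416 to 29535867) had 466 and 393 CPM against 73.3 and 145 (log2 fold change 1.89 ± 0.25, adjusted p = 2.74e-11, 0.0109 by DESeq2). The cartilage matrix genes Cilp2 and Comp had 172 and 377 against 30.2 and 123, and 565 and 985 against 164 and 408. H19 had 1672 and 1800 CPM against 659 and 527. The noncoding RNA Snhg11 and the cell surface glycoprotein Emb, which were singled out after their values were seen, had log2 fold changes of 2.49 ± 0.29 and 1.74 ± 0.22. With Pappa, these 6 are the 7 genes that DESeq2 called higher. Thinned to 5000 UMIs, Rspo3 was seen in 66.7% and 73.6% of the Alpl-positive cells and in 40.0% and 38.7% of the Alpl-negative cells.

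Of the 85 listed genes that were called, DESeq2 called 14, and 31 of the 73 that could be tested after thinning were called there. By list, against a median log2 fold change of 0.01 over all genes tested, the immune-directed ligands moved furthest: of 12 tested, 7 were higher in Alpl-negative cells and none in Alpl-positive cells (median -1.13). They included the chemokines Cxcl1, Cxcl12, Cxcl14 and Ccl11 and the complement genes C3 and C4b. Cxcl14 was higher in library 2, at 385 CPM against 102, and not in library 1, at 60.3 against 84.0. A single cell gave 78.0% of the Cxcl14 UMIs of the Alpl-negative cells. After thinning, Cxcl14 was seen in more of the Alpl-positive cells, 25% and 27.8%, than of the Alpl-negative cells, 6.67% and 12%. Cxcl1 had 112 and 210 CPM in Alpl-negative cells against 22.9 and 20.1 (-3.14 ± 0.33). Il33 was not called, with a log2 fold change of 0.45. Of 9 metallothionein and interferon-induced genes 5 were higher in Alpl-negative cells and none in Alpl-positive cells (median -1.07), and of 22 immediate-early and heat shock genes 5 and none (median -0.57). The first 5 were Isg15, Bst2, Irf7, Mt2 and Ifit3. Neither DESeq2 nor the fit after thinning called any of them, and 1 cell held 52.5% of the Ifit3 UMIs, 29.0% of those of Irf7, 24.6% of those of Bst2 and 23.1% of those of Isg15. Of the second 5 DESeq2 called none, and Atf3 and Nr4a1 were called after thinning. The part of these lists in the other differences was not tested.

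Matrix genes split between the groups. Of 18 collagens 4 were higher in Alpl-negative cells and 1, Col8a2, in Alpl-positive cells (median -0.07). The 4 were the basement membrane chains Col4a1 and Col4a2, Col6a3 and Col15a1. DESeq2 called Col4a1 and Col6a3, and the fit after thinning called the 4. Neither called Col8a2. Col15a1, a collagen at basement membrane borders, had 323 and 116 CPM in Alpl-negative cells against 0 and 20.1 (-3.26 ± 0.32, adjusted p = 1.08e-20). DESeq2 did not call it (adjusted p = 0.999985), and 1 cell held 33.1% of the UMIs. Col1a1 did not reach the fold limit, with 10960 and 3748 CPM in Alpl-positive cells against 3569 and 4098, opposite in direction between the libraries. No collagen-processing enzyme of 18 was called. Fmod, fibromodulin, was higher in Alpl-positive cells (1.22 ± 0.20), and Podn and Epyc in Alpl-negative cells, Epyc in library 2 and not in library 1. Of these 3 proteoglycans DESeq2 called none, and the fit after thinning called Fmod. Dcn and Lum, which helped to choose the cells and carry no test, had 16057 and 15965 CPM and 3543 and 2630 CPM in Alpl-negative cells, against 3894 and 4377 CPM and 1340 and 788 CPM in Alpl-positive cells. Of 7 binding proteins and neighbours of the insulin-like growth factor system 3 were higher in Alpl-negative cells and 1, H19, in Alpl-positive cells. The 3 were Igfbp2, Igfbp3 and Igfbp6, the last with 694 and 1368 CPM against 221 and 306 (-1.94 ± 0.21). DESeq2 and the fit after thinning called H19 and Igfbp6, and neither called Igfbp2 or Igfbp3. A single cell held 55.9% of the Igfbp3 UMIs of the Alpl-negative cells. Of 29 matricellular genes 3 were higher in Alpl-positive and 4 in Alpl-negative cells, the latter including Mfap5 and Smoc2. DESeq2 called 3 of these 7 and the fit after thinning 5, and Mfap2, higher in Alpl-positive cells, lost its call without the 3 cells.

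Of 18 bone lineage genes 3 were higher in Alpl-positive cells (Msx1, Cdh11 and Ostn) and 1 in Alpl-negative cells, Spp1, which encodes osteopontin (median 0.59). Msx1, a homeobox gene of the skull, had 225 and 217 CPM against 103 and 96.6 (1.15 ± 0.27, adjusted p = 0.00081), but was not called by DESeq2 (adjusted p = 0.999985) or after thinning, at a log2 fold change of 0.99 (adjusted p = 0.157). Cdh11 was not called by either, nor by edgeR without the 3 cells. Ostn rested on library 2, with 82.9 CPM against 13.1, where library 1 had 3.82 against 8.62. Runx2, Sp7 and Dlx5 did not pass the test, with log2 fold changes of 0.70, 1.92 and 1.36 and adjusted p of 0.268, 0.0719 and 0.154. Of 8 cartilage and tendon genes Acan and Scx were higher in Alpl-positive cells and none in Alpl-negative cells (median 0.59). DESeq2 called neither, and the fit after thinning called Acan. A single cell held 31.6% of the Scx UMIs of the Alpl-positive cells. The chondrocyte markers summed to 887 and 1103 CPM in Alpl-positive and 318 and 455 in Alpl-negative cells, led by Comp in each. The osteoblast markers summed to 24.6 and 136 against 8.61 and 5.62, with Ibsp and Dmp1 at 0. The 136 CPM, led by Bglap2, rested mainly on a single cell. It held 202 of the 262 UMIs of Bglap and Bglap2 in the members of library 2.

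Among transcription factors of the cranial mesenchyme, 2 of 33 were higher in Alpl-positive cells, Lmx1b and En1, and 7 in Alpl-negative cells, Meox1, Meox2, Ebf2, Tfap2b, Runx1, Nr2f1 and Nr2f2 (median 0.22). En1 had no UMI in library 1. Of these 9 genes DESeq2 called Ebf2 and Meox2, the fit after thinning called these and Nr2f1, and Lmx1b lost its call without the 3 cells. In the BMP and TGF-beta axis 5 of 28 genes were higher in Alpl-positive cells (median 0.13). These were the antagonists Nog and Chrdl1 and the BMP-responsive genes Id1, Id2 and Smad7. Id1 had 290 and 367 CPM against 81.9 and 166 (1.39 ± 0.26). Bmp5 and the antagonist Fst were higher in Alpl-negative cells, Fst with 56.0 and 54.8 CPM against 0 and 6.41. DESeq2 called none of these 7 genes, and the fit after thinning called Id1. In the Wnt axis 1 of 19 genes, Rspo3, was higher in Alpl-positive cells and 5 in Alpl-negative cells, namely Sfrp1, Sfrp4, Dkk2, Rspo1 and Wnt6 (median -0.16). DESeq2 called Rspo3 and Sfrp1, the fit after thinning called these and Sfrp4, and Rspo1 lost its call without the 3 cells. Among 26 other ligands, Nppc and Igf2 were higher in Alpl-positive cells, and Fgf7, Kitl, Penk and Angptl1 in Alpl-negative cells. Of these 6 DESeq2 called none, and Fgf7 and Kitl were called after thinning. Nppc was higher in library 2, at 264 against 19.1 CPM, and not in library 1, at 19.1 against 21.6. Of 28 receptors and other surface proteins, Fgfr2, a fibroblast growth factor receptor, and the collagen-binding integrin Itga11 were higher in Alpl-positive cells. The leptin receptor Lepr and Cd34, Ly6a and Pi16, which are surface proteins of fibroblasts and not growth factor receptors, were higher in Alpl-negative cells. DESeq2 called none of these 6, and the fit after thinning called Cd34, Ly6a and Pi16. Pi16 rested on library 2, as library 1 had 3.82 CPM in Alpl-positive and 0 in Alpl-negative cells, and Cd34 had 15.3 against 17.2 CPM in library 1 and 21.4 against 107 in library 2. A single cell held 42.2% of the Ly6a UMIs of the Alpl-negative cells. Pdgfra, at 183 and 125 CPM against 341 and 206, did not reach the fold limit (-0.79 ± 0.25).

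Depth and the markers of other cells moved with the Alpl groups to some degree. The smooth muscle markers summed to 296 and 700 CPM in Alpl-positive and 869 and 863 in Alpl-negative cells, led by Tagln in the latter. Among Alpl-positive cells Tpm2 and Myl9 were the most abundant of them. The leptomeningeal markers summed to 160 and 121 CPM against 202 and 1609, the last with 1568 CPM of Ptgds, mostly from the single cell rich in it. Median mitochondrial shares were 4.17% and 6.54% in Alpl-positive and 3.82% and 5.97% in Alpl-negative cells. The part of the smooth muscle markers and of depth in the Alpl difference was not tested beyond these values and the thinned comparison. In that comparison, where cells were also regrouped, 89 of 6459 genes were called, 83 of them among the 277.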

How the data were processed

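Single-cell suspensions of the tissue on the inner side of the skull (2 BA libraries) and on the surface of the cortex (4 CSA libraries) were sorted for viability and sequenced on the 10x Chromium platform by the authors. The files hold raw UMI counts per gene and cell, which the authors made with Cell Ranger on mm10 and deposited unnormalized; the labels name Cell Ranger 3 and the matrix headers 6.1.2. The labels' extract protocol describes a different dissociation (papain) from the study's methods for this tissue (collagenase and dispase), and which was used for these libraries was not settled.

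Barcodes were kept if they had 500 genes or more and no more than 10% of their UMIs from mitochondrial genes. Members were found by the marker rule, and the same rule gave the leptomeningeal fibroblasts of the CSA libraries. T cells, the background for free RNA, had a Ptprc UMI and at least 2 of 5 T cell markers. No doublets were removed; leaving out cells resembling simulated doublets was an alternative, which marked 3 members in BA library 2.

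UMIs were summed per library, and per library and Alpl group. Sums were tested with edgeR 4.0.16 (quasi-likelihood, TMM scaling, limma 3.58.1) in R 4.3.3, with Benjamini-Hochberg adjustment, on genes seen in over 10% of the cells in at least 1 of the groups. The 12 genes of the rule, and Alpl in its own split, were not tested. DESeq2 1.42.0 was an alternative. Other steps ran in Python 3.11.15 with scipy 1.17.1, scikit-learn 1.9.0 for the doublets, numpy 2.4.6, matplotlib 3.10.9 and pandas 2.3.3. The tests were first run on simulated data.

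Named genes were the 15 with the highest lower-library ratio to other BA cells (outside the markers, UMIs in at least 50% of members), and for each test the 10 largest changes each way among called genes of at least 50 UMIs, with no overlap between libraries or the same direction in both, together with the 441 genes of 19 lists that were found in the files (5 were not). A few genes that these rules name are not reported here. The members, lists and rules were chosen with earlier results of these data known. Where a group had no UMI, folds are lower bounds at a floor of 3 UMIs over the group. Intervals are exact binomial or counting intervals at 95%. Coordinates are those of GRCm38 (mm10) in the reference annotation, which matched 30934 of 31053 features. Alternatives were other thresholds for cells and genes, other scaling, thinning to 3000 or 5000 UMIs, libraries left out and the library block.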

Additional observations from a re-analysis of the deposited data

Results flagged for a closer look

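Slc30a10, the metal transporter with no UMI in the dural fibroblasts, was at 182 TMM-scaled CPM in the leptomeningeal fibroblasts of CSA library 4, which stood apart from the 112, 98.4 and 108 CPM of CSA libraries 1, 2 and 3. The gap to the nearest library exceeded Dixon's 95% critical value for 4 samples. It was 1 of 20 named genes examined in this way, and chance alone flags about 1 in 20. CSA library 4 contributed 21 cells.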

How the results depend on the processing

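The comparison of dural with leptomeningeal fibroblasts made 1344 calls by edgeR, 785 of them higher in dural. DESeq2 made 942, 524 of them higher in dural, and repeated 931 of the 1344. The comparison stayed within 1.5 times its edgeR counts under every setting except thinning to 3000 UMIs. That setting tested 4822 genes in place of 9572 and called 835, 458 of them higher in dural. Leaving out 1 library at a time gave 1061 to 1368 calls. With the replicate number as a block it called 1443. The BA and CSA libraries share only their numbers. The deviations of same-numbered libraries correlated at 0.0718 and 0.185. Those of BA library 1 with CSA library 2 and of BA library 2 with CSA library 1 correlated at -0.185 and -0.0718. With 2 BA libraries their deviations are mirror images, so these values cannot decide whether the libraries were paired. The 20 named genes kept their direction and their call throughout where they could be fitted, except 1 that DESeq2 did not call.

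The Alpl comparison depended on the test. It made 277 calls (96 and 181). DESeq2 made 28 (7 and 21), all among the 277, and the fit with no replicate block 111 (30 and 81), of which 109 were shared. Thinning to 5000 UMIs before the split also regrouped the cells. With 6459 genes tested it made 89 calls (25 and 64), of which 83 were shared. The effects of thinning and of regrouping were not separated. The other settings gave 205 to 288. The cause of the difference between tests was not tested. Its 20 named genes kept their direction in every setting in which they could be fitted, but 14 were not called by DESeq2. Of the 14 that could be fitted after thinning 9 were called. These 9 include Ttr, for which 1 cell gave 98.7% of the UMIs of the Alpl-negative cells before thinning. With 2 libraries, 1 residual degree of freedom remained, so no test was possible with a library left out. The 20 genes were chosen for the same direction in both libraries, so none of their log2 fold changes could reverse in a single library. Without BA library 1, 18 differed from the joint fit by more than its SE, and without BA library 2, 17 did. The single-library values were computed from CPM plus 5 and the joint fit was not. These counts therefore mix the change of formula with the libraries, and how far a library moved a gene was not tested. The share of BA library 2 members with Alpl was 65.9%, and 54.8% after thinning.

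BA library 1 gave 28 members and limits every value from it. Members with few UMIs may count as Alpl-negative, and levels in small groups can rest on single cells.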

Other observations

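The cells that met the fibroblast markers but carried an excluded gene, 28 in BA library 1 and 85 in BA library 2, differed from the dural fibroblasts in mural cell genes. Rgs5, a pericyte gene, was at 3454 and 1943 CPM in them against 8.40 and 36.5 CPM in the members. Ccl19, a chemokine that draws lymphocytes, was at 426 and 221 CPM against 25.2 and 27.3. Pdgfra had a UMI in 25% and 31.8% of them against 82.1% and 72.7%. Alpl was at 320 and 310 CPM in them against 328 and 428 CPM in the members. In the 21 and 65 of these cells that carried Kcnj8 it was at 152 and 240 CPM.

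Few of the CSA cells that met the marker rule carried Alpl: 0 of 68, 5 of 123, 0 of 28 and 2 of 21 in the 4 libraries. None of these 7 cells had a UMI of the leptomeningeal genes Slc22a6 or Ranbp3l, which 114 of the other cells of CSA library 2 had. H19 was seen in 2 of the 5 in CSA library 2 and in no CSA cell without Alpl that met the rule. Mgp was seen in 4 of the 5 in CSA library 2, against 37 of the 118 without Alpl. In CSA library 4 it was seen in 2 of 2, against 8 of 19. Whether these 7 cells belonged to the leptomeninges was not tested. With the 7 cells left out, a setting chosen after the data were seen, 1443 genes were called between the preparations.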
